A study of Homo sapiens with 22 samples.

Results

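Matrix proteases, their tissue inhibitors and the urokinase system were followed in HT1080 cells, a human fibrosarcoma cell line, as 9 named genes of the 60675 in the table: MMP1, MMP2, MMP3, MMP14, TIMP1, TIMP2, TIMP3, PLAU and PLAUR. The members were chosen by symbol, as known invasion genes of this line, and each symbol matched 1 row. RNA was sequenced after rRNA depletion in 22 libraries of 6 groups. WT cells were compared with 3 lines in which CRISPR/Cas9 had changed a catalytic histidine of a lysine deacetylase to alanine in the endogenous gene, and with WT cells exposed to inhibitors of the same enzymes. The KDAC6H216A cells (n = 4) carried the change in the first catalytic domain of KDAC6 and were a pool of 3 independent lines. The KDAC6H611A cells (n = 4) carried it in the second domain, and the KDAC8H143A cells (n = 4) carried it in KDAC8 together with an unintended insertion of 1 base in an intron. The number of clones behind KDAC6H611A and KDAC8H143A is not given in the sources used here, so clone and mutation cannot be told apart. Tubastatin A, a KDAC6 inhibitor (TubA in the plots), was used at 1 µM and PCI-34051, a KDAC8 inhibitor (PCI), at 5 µM, each for 2 days (n = 3 each), and WT cells without inhibitor (n = 4) served as the control of every line and treatment. The replicates were biological replicates by the study's methods, which do not say how separate their cultures were, so p-values measure the spread between these libraries.

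Matrix metalloproteinases are zinc endopeptidases that are made as inactive proenzymes and that cut collagens and other matrix proteins once activated. Tissue inhibitors of metalloproteinases (TIMPs) bind the active enzymes, and TIMP2 also takes part in the activation of the MMP2 proenzyme by the membrane-anchored MMP14. Urokinase (PLAU), held at the cell surface by its receptor PLAUR, turns plasminogen into plasmin, which degrades fibrin and activates several metalloproteinase proenzymes.

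The libraries held 5248953 to 29862665 counts, with 5248953 to 8998474 in WT cells and 24315766 to 29862665 in the inhibitor groups. Mitochondrial rRNA took 20.8 to 23.9% of the counts in WT cells and at most 0.0259% in KDAC8H143A cells, 0.00287% with Tubastatin A and 0.00541% with PCI-34051. In these 3 groups, that difference and the mutation or treatment cannot be told apart. The same holds for depth, which lay above the WT range in all 3. KDAC6H216A replicate 1 (0.195%) and KDAC6H611A replicate 4 (0.173%) stood apart from the other libraries of their lines, and results that rest on them are given with and without them. HDAC6, the gene of KDAC6, averaged 14.2 ± 3.28 CPM (counts relative to the library total after TMM scaling; SD, n = 4) in WT cells, 6.37 ± 0.749 in KDAC6H216A cells and between 13.2 and 18.9 on average in the other groups. The KDAC6H216A libraries (5.86 to 7.46 CPM) lay below those of WT cells (9.72 to 17.0 CPM). In that line, the lower HDAC6 level and the mutation cannot be told apart. HDAC8, the gene of KDAC8, averaged 12.5 to 13.7 CPM in every group, and neither level can check a change of 1 codon. Of the mesenchymal markers, VIM, FN1, SPARC and CD44 were abundant and S100A4 averaged at most 2.29 CPM, while the epithelial markers EPCAM, CDH1 and KRT19 had at most 5 counts in any library and KRT8 and KRT18 averaged 121 to 239.6 CPM. CDH2 (mesenchymal) and CLDN4 (epithelial) completed these lists of 6 genes, and their levels are not given. In every group 3 of the 6 epithelial markers had more than 3 counts in every library.

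In WT cells the urokinase and MMP14 transcripts made up most of the 9-gene total. Levels were compared between genes only after division by exon length, as CPM per kilobase. PLAU stood at 219 and MMP14, the membrane-anchored protease, at 176 CPM per kilobase. TIMP2 (31.6), TIMP1 (29.4), PLAUR (22.6) and MMP1 (21.4) formed a middle range, and MMP2 (8.84), TIMP3 (3.81) and MMP3 (3.06) were the least abundant. The sum over the 9 genes was 516 ± 32.9 CPM per kilobase in WT cells (SD). The KDAC6H216A line had 534 ± 101, the KDAC6H611A line 589 ± 123 and the KDAC8H143A line 305 ± 38.4, and the inhibitor groups had 752 ± 21.6 (Tubastatin A) and 821 ± 28.9 (PCI-34051). The share of MMP1 in that sum was 4.14% in WT cells and 14.9% in KDAC6H611A cells, against 0.266% in KDAC6H216A and 0.392% in KDAC8H143A cells. PLAU held 42.5% of it in WT cells and 27.9% in KDAC8H143A cells.

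**Figure D1:**
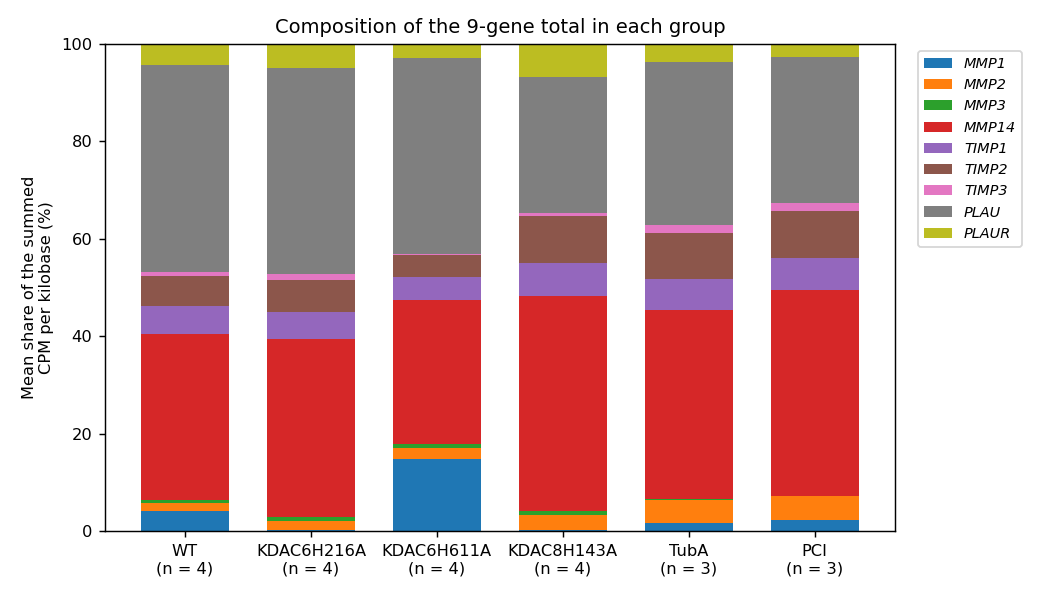
Mean share of each gene in the summed CPM per kilobase of the 9 genes (vertical axis, percent), by group (n = 4, or 3 for the inhibitors). MMP14 and PLAU fill most of every bar, and MMP1 is visible mainly in WT cells (4.14%) and KDAC6H611A cells (14.9%).

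The members that moved were few in the KDAC6 lines and many under the inhibitors. All 9 genes passed the filter on low counts in every comparison. A change was called where the quasi-likelihood test of edgeR gave a p under 0.01 after Benjamini-Hochberg adjustment across the genes tested. In KDAC6H216A cells 1 member was lower than in WT cells and none was higher, where 0.834% of all genes were called (0.214% higher, 0.621% lower). Without replicate 1 of that line, low in mitochondrial rRNA, 3 members were called, and calls over all genes went from 121 to 3813. In KDAC6H611A cells 1 member was higher and 1 lower, where 12.3% of all genes were called (6.08% higher, 6.24% lower). In KDAC8H143A cells 4 were lower and none higher, where 58.5% were called (31.6% higher, 26.9% lower). Tubastatin A came with 6 members higher and 2 lower, against 57.9% of all genes (29.3% higher, 28.6% lower), and PCI-34051 with 5 higher and 2 lower, against 51.1% (25.5% higher, 25.6% lower). The CPM ranges of the group and of WT cells did not overlap for 2 members in KDAC6H216A (8.59% of all genes tested), 3 in KDAC6H611A (25.4%) and 5 in KDAC8H143A (64.8%). The same held for 9 members under Tubastatin A (63.9%) and 7 under PCI-34051 (59.1%).

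The 4 of 9 members called in KDAC8H143A cells were a smaller share than that of all genes, and the counts under the inhibitors stand against backgrounds in which most genes were called. The median log2 fold change of the 9 members was 0.058 (KDAC6H216A), 0.0016 (KDAC6H611A), -0.35 (KDAC8H143A), 0.54 (Tubastatin A) and 0.78 (PCI-34051). Over all genes tested the medians were 0.0035, 0.028, 0.076, -0.0029 and -0.0071 in the same order. Scaling by total count alone moved the median of all genes to 0.17, 0.041, 0.36, 0.35 and 0.38, so directions that rest on small differences hold relative to the other genes. With that scaling the calls over all genes shifted from 31 higher and 90 lower to 358 and 85 in KDAC6H216A, and from 895 and 919 to 549 and 364 in KDAC6H611A. They shifted from 5093 and 4326 to 6481 and 2494 in KDAC8H143A, from 4461 and 4360 to 7910 and 1846 with Tubastatin A, and from 3911 and 3924 to 7893 and 1477 with PCI-34051. These 5 comparisons share the WT libraries, so their values are given side by side and not set against each other. In bulk RNA, more transcript per cell and more cells that express a gene cannot be told apart.

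**Figure D2:**
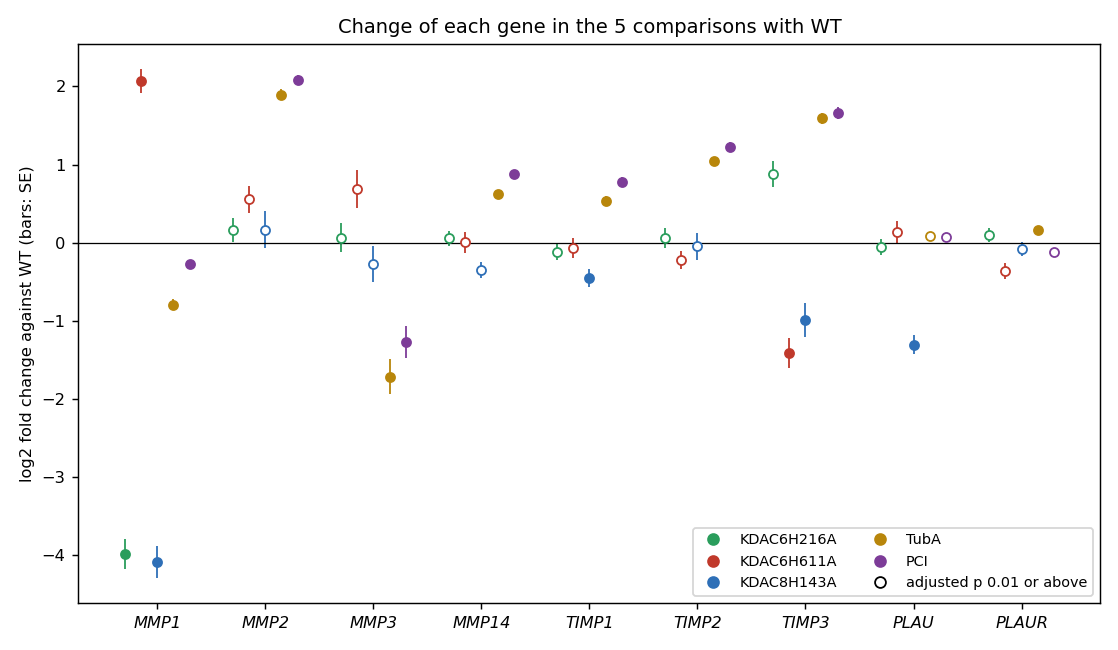
Log2 fold change of each gene against WT cells (vertical axis) in the 5 comparisons, with bars of 1 standard error; filled points passed an adjusted p under 0.01 and open points did not. MMP1 spans the widest range, from -4.09 in KDAC8H143A to 2.07 in KDAC6H611A.

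The sequences before the start sites are shown for TIMP1, TIMP3 and MMP14, which were higher with both inhibitors, and for PLAU, which was lower in KDAC8H143A cells. MMP2 and TIMP2 were also higher with both inhibitors, but no sequence was at hand for them. RefSeq promoter entries (GRCh38.p14) matched 5 of the 9 members, of which PLAUR had 0 bases left outside annotated exons. MMP1, MMP2, MMP3 and TIMP2 had no matching entry, so no motif was searched before these genes. The windows are TIMP3 chr22:32801455-32801704, TIMP1 chrX:47582186-47582407, MMP14 chr14:22836335-22836559 and PLAU chr10:73910882-73911103, all on the plus strand and written 5′ to 3′. Each begins 250 bases before the start site and ends at that site or where an annotated exon begins, and capitals mark GGGCGG or its reverse complement CCGCCC.
TIMP3: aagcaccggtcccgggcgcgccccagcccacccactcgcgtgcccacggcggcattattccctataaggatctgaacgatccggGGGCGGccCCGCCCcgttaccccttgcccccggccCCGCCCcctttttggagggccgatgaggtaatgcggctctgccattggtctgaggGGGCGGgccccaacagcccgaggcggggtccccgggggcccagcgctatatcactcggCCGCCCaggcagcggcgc
TIMP1: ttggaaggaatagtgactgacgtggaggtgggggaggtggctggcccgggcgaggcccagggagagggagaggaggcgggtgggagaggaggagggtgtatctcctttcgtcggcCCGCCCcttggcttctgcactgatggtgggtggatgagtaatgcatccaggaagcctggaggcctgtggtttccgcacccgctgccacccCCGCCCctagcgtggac
MMP14: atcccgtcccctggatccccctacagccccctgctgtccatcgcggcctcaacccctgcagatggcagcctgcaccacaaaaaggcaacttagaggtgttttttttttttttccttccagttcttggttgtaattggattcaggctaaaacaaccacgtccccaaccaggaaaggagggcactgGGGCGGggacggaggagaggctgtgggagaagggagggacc
PLAU: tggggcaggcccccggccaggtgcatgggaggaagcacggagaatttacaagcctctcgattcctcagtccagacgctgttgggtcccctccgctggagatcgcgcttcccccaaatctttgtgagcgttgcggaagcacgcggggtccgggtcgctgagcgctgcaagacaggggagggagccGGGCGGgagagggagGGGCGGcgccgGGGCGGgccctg

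GGGCGG, searched on both strands, occurred 5 times in the TIMP3 window, 2 times in that of TIMP1, 1 time in that of MMP14 and 3 times in that of PLAU. A window of PLAU before another start site (chr10:73910360-73910604, not printed) held none. The same letters are in 42.6% of the 35116 RefSeq promoters, counted over all 250 bases with exons kept, unlike the windows above. TGANTCA, searched as a form of the AP-1 motif, had no exact match in these 4 windows. It is in 6.57% of all promoters, counted in the same way. Sites that differ from it by 1 base, such as TGAGTAA in the TIMP1 window, were not searched. The motifs describe the sequence and were not tied to a change in expression.

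MMP1, the interstitial collagenase that cuts fibrillar collagen, was the member that differed most among the lines. It lies on chromosome 11 from 102789401 to 102798160 (GRCh38, minus strand). WT cells had 52.5, 63.8, 55.3 and 62.4 CPM. KDAC6H216A cells had 3.13, 2.26, 4.44 and 5.71 CPM, from 22 to 59 counts a library. KDAC6H611A cells had 247, 166, 314 and 239.5 CPM. All libraries of the first line lay below, and all of the second above, every WT library. KDAC8H143A cells had 4.09, 4.12, 3.06 and 1.80 CPM and also lay below every WT library. With Tubastatin A the values were 32.2, 39.0 and 38.9 CPM, and with PCI-34051 they were 50.3, 54.3 and 50.7 CPM. From the highest to the lowest mean, the order was KDAC6H611A (242 ± 60.3), WT (58.5 ± 5.44), PCI-34051 (51.8 ± 2.25), Tubastatin A (36.7 ± 3.91), KDAC6H216A (3.89 ± 1.51) and KDAC8H143A (3.27 ± 1.10). WT and PCI-34051 overlapped in this order, as did KDAC6H216A and KDAC8H143A, and the other neighbours did not.

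MMP1 fell 15.9-fold in KDAC6H216A cells (log2 fold change -3.99, SE 0.20, adjusted p = 1.04e-05) and 17.0-fold in KDAC8H143A cells (-4.09, SE 0.20, adjusted p = 7.94e-08), as edgeR's quasi-likelihood test gave them. In KDAC6H611A cells it rose 4.19-fold (2.07, SE 0.15, adjusted p = 2.14e-06). These 3 calls held in 8 of 8 fits that left out 1 library and in 11 of 11 other settings. With Tubastatin A, MMP1 fell 1.73-fold (-0.79, SE 0.071, adjusted p = 1.11e-08), a call that a fit of all 6 groups ended (-0.67). The log2 difference with PCI-34051 was -0.28 (SE 0.063, adjusted p = 8.78e-04), the ranges overlapped, and scaling by total count alone turned its direction (0.11). That call was also lost without the low count filter (-0.19) and in a fit of all 6 groups (-0.18).

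The mutations in the 2 domains of KDAC6 were also compared directly. MMP1 stood 65.3-fold higher in KDAC6H611A than in KDAC6H216A cells (6.03, SE 0.28, adjusted p = 2.26e-06 in edgeR's quasi-likelihood test), a comparison in which 9.93% of all genes were called (4.61% higher, 5.31% lower) and 2 of the 9 members (1 higher, 1 lower). The ranges of these 2 members did not overlap, as for 22% of all genes. Calls over all genes were 690 higher and 795 lower, and upper quartile factors, which moved the median of all genes to 0.12, gave 898 higher and fewer lower than higher. TIMP3 was the other, 5.02-fold lower in KDAC6H611A cells (-2.33, SE 0.23, adjusted p = 1.31e-04). Without both libraries low in mitochondrial rRNA the log2 differences were 6.00 for MMP1 and -2.55 for TIMP3, and PLAUR then passed as well (-0.65). PLAUR did not pass with all libraries (-0.49, SE 0.13, adjusted p = 0.024) and passed without KDAC6H216A replicate 1 (-0.59). It also passed with DESeq2 (-0.49), the GC content and length correction (-0.57) and the fit of all 6 groups (-0.58).

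**Figure D3:**
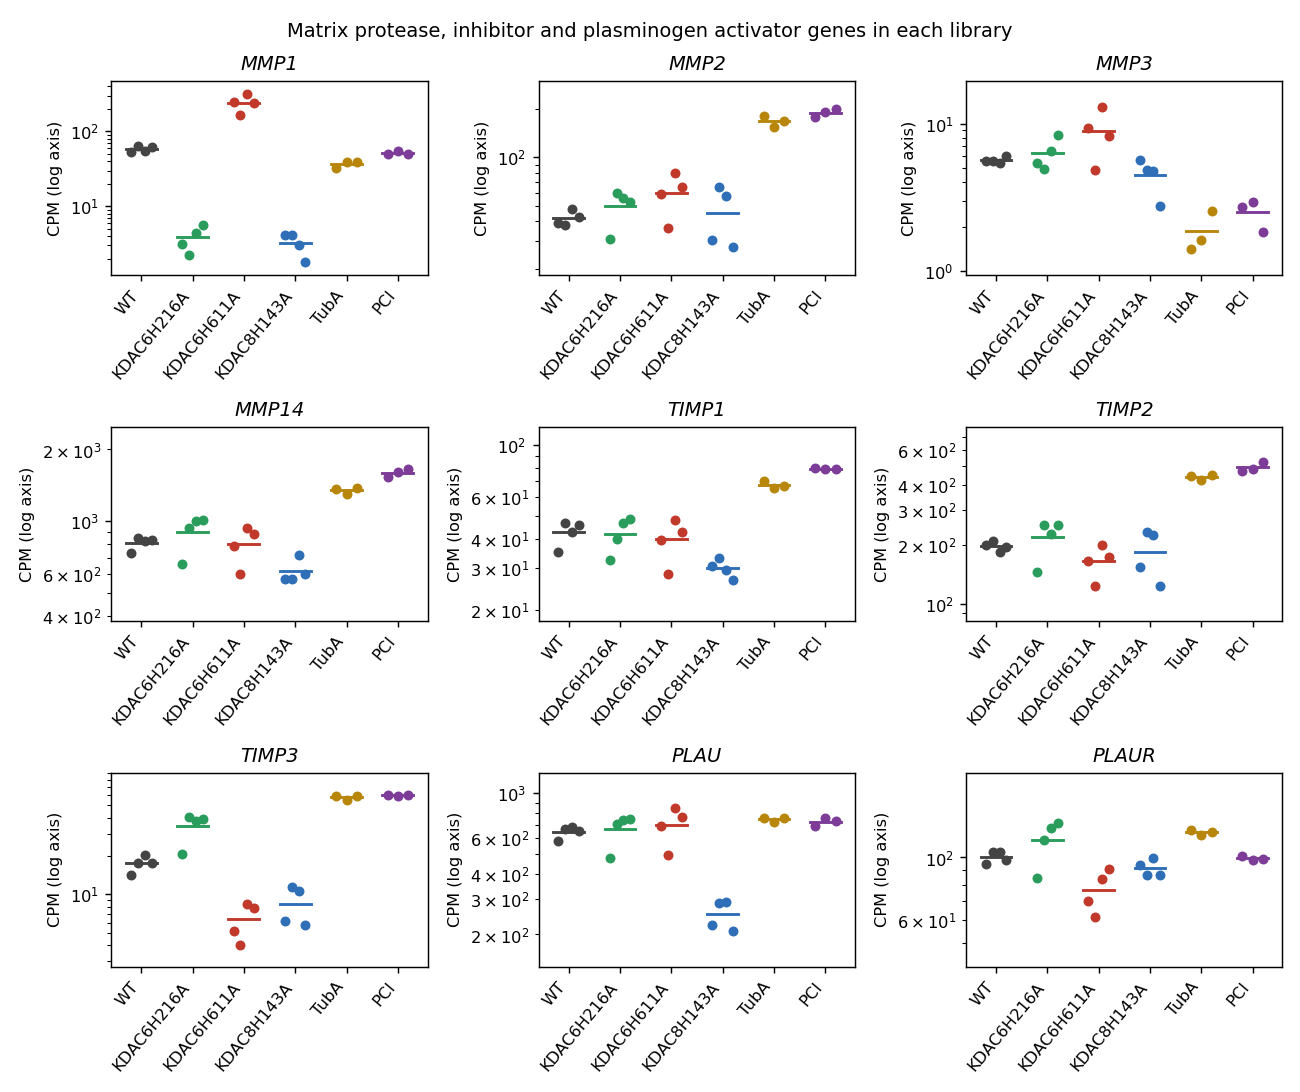
CPM of each gene in every library (log axis), by group, with a bar at the group mean. MMP1 separates the lines (3.89 in KDAC6H216A, 242 in KDAC6H611A, 3.27 in KDAC8H143A, 58.5 in WT), whereas MMP2, MMP14, TIMP1, TIMP2 and TIMP3 are highest under the inhibitors.

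MMP1 sits in a cluster of metalloproteinase genes on chromosome 11, and the change in the KDAC6 lines was not called in any neighbour. Of 30 other annotated genes within 500000 bases, 7 were expressed enough to be tested in the 3 comparisons of lines with WT cells. MMP7, MMP8, MMP10, MMP12, MMP13, MMP20 and MMP27 did not exceed 0.308 CPM in any library. In both KDAC6 lines none of the 7 tested neighbours passed, MMP3 included. In KDAC8H143A cells BIRC2 (log2 fold change -0.89, adjusted p = 4.60e-05) and TMEM123 (-1.14, adjusted p = 2.80e-04) were lower and DCUN1D5 (0.63, adjusted p = 0.0030) was higher. These 3 genes were named after their values were seen, and the p-values are from edgeR's quasi-likelihood test. The transcribed pseudogene WTAPP1 runs across MMP1 on the opposite strand and reached at most 0.0906 CPM. Whether counting used strand is not stated, so reads from the genes of such a pair cannot be told apart.

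**Figure D4:**
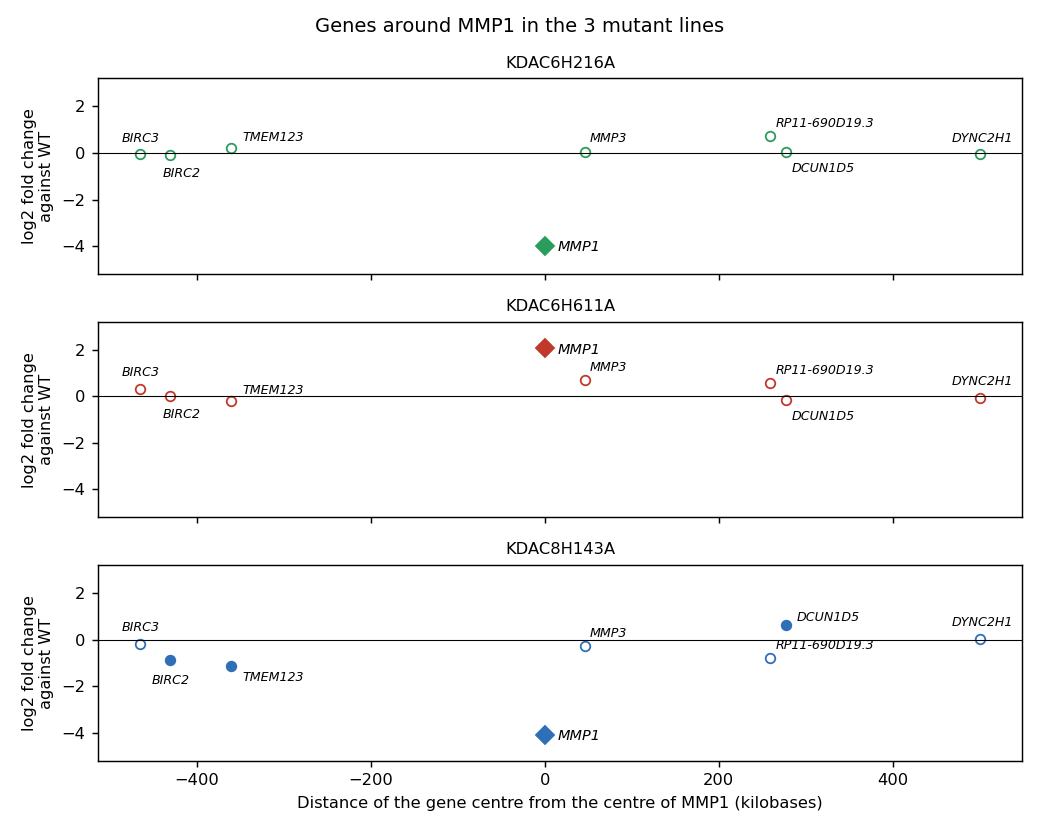
Log2 fold change against WT cells (vertical axis) of MMP1 and of its tested neighbours, by the distance of the gene centre from that of MMP1 in kilobases, for the 3 lines. Filled points passed an adjusted p under 0.01. MMP1 is at -3.99, 2.07 and -4.09, and the neighbours lie between -1.14 and 0.74.

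MMP3, stromelysin-1, which cuts proteoglycans and activates other proenzymes, lies 37641 bases from MMP1 and was lower with both inhibitors. WT cells had 5.58, 5.62, 5.43 and 6.08 CPM. With Tubastatin A the values were 1.41, 1.61 and 2.56 CPM and with PCI-34051 they were 2.74, 2.96 and 1.83 CPM, all below the WT libraries. MMP3 fell 3.29-fold with Tubastatin A (-1.72, SE 0.23, adjusted p = 1.83e-06 in edgeR's quasi-likelihood test) and 2.42-fold with PCI-34051 (-1.27, SE 0.21, adjusted p = 4.21e-05). These inhibitor libraries held 44 to 93 counts of MMP3. In the lines the means were 6.30 ± 1.51 (KDAC6H216A), 8.87 ± 3.33 (KDAC6H611A) and 4.52 ± 1.23 CPM (KDAC8H143A), and each range overlapped that of WT cells. None of the 3 passed (adjusted p = 0.91, 0.058 and 0.29), but KDAC6H611A passed without its replicate 2 (0.85). In the order of means, KDAC6H611A, KDAC6H216A, WT, KDAC8H143A, PCI-34051 and Tubastatin A, every pair of neighbours overlapped.

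MMP2, gelatinase A, which degrades denatured and basement membrane collagen, was higher with both inhibitors. WT cells had 38.7, 37.9, 47.5 and 42.3 CPM. With Tubastatin A it stood at 180.4, 155 and 169 CPM, and with PCI-34051 at 178, 191 and 199 CPM. No inhibitor library came near the WT range, and the rise was 3.72-fold with Tubastatin A (1.90, SE 0.069, adjusted p = 2.19e-14) and 4.24-fold with PCI-34051 (2.08, SE 0.068, adjusted p = 8.45e-14) in edgeR's quasi-likelihood test. The lines spread more widely than WT cells. KDAC6H216A cells had 30.8, 60.0, 55.7 and 52.8 CPM, KDAC6H611A cells 59.0, 36.1, 79.6 and 65.3 CPM, and KDAC8H143A cells 30.5, 65.1, 57.2 and 27.5 CPM. Each line overlapped WT cells and none passed (log2 fold changes 0.16, 0.55 and 0.17, adjusted p = 0.66, 0.034 and 0.55). MMP2 passed in KDAC6H216A without replicate 1 (0.29) and in KDAC6H611A without replicate 2 (0.70) or without the low count filter (0.53), and in KDAC8H143A the correction for GC content and gene length turned its sign (-0.30). In the order PCI-34051, Tubastatin A, KDAC6H611A, KDAC6H216A, KDAC8H143A and WT, only Tubastatin A and KDAC6H611A did not overlap.

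MMP14, the membrane-anchored activator of MMP2, rose with both inhibitors. WT cells had 737, 852, 827 and 837 CPM. With Tubastatin A it had 1372, 1301 and 1378 CPM, and with PCI-34051 it had 1532, 1608 and 1659.6 CPM, all above the WT libraries. The rise was 1.53-fold (0.62, SE 0.044, adjusted p = 4.11e-10) and 1.84-fold (0.88, SE 0.054, adjusted p = 3.00e-10) in edgeR's quasi-likelihood test. The KDAC6 lines averaged 903 ± 165 and 802 ± 151 CPM and did not pass against WT cells (adjusted p = 0.84 and 0.996). KDAC8H143A cells had 573, 572, 719 and 603 CPM, below every WT library, yet the difference missed the threshold (-0.35, SE 0.10, adjusted p = 0.0101). It passed without KDAC8H143A replicate 2 (-0.38), 3 (-0.47) or 4 (-0.39) and with DESeq2 (-0.39), upper quartile factors (-0.36) or the GC content and length correction (-1.03), and shrank to -0.062 with total count scaling. In the order PCI-34051, Tubastatin A, KDAC6H216A, WT, KDAC6H611A and KDAC8H143A, the last 4 overlapped from neighbour to neighbour.

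TIMP3, the inhibitor that binds to the matrix and also blocks ADAM proteases, was the inhibitor gene with the widest range. It lies on chromosome 22 from 32801705 to 32863041, inside the opposite-strand gene SYN3, which reached at most 0.250 CPM. WT cells had 14.3, 17.6, 20.3 and 17.8 CPM. KDAC6H216A cells had 20.9, 40.3, 37.7 and 39.4 CPM, KDAC6H611A cells 5.14, 4.03, 8.43 and 7.80 CPM, and KDAC8H143A cells 6.17, 11.3, 10.5 and 5.72 CPM. The first line lay above all WT libraries and the other lines below them. With Tubastatin A the values were 59.1, 55.7 and 59.2 CPM and with PCI-34051 they were 60.1, 59.7 and 60.4 CPM, above every other library. In the order PCI-34051, Tubastatin A, KDAC6H216A, WT, KDAC8H143A and KDAC6H611A, only the last 2 overlapped.

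TIMP3 fell 2.66-fold in KDAC6H611A cells (-1.41, SE 0.19, adjusted p = 2.50e-04 in edgeR's quasi-likelihood test), in 8 of 8 fits without 1 library. It fell 1.99-fold in KDAC8H143A cells (-0.99, SE 0.22, adjusted p = 0.0016), a call lost with total count scaling (-0.69). It rose 3.02-fold with Tubastatin A (1.59, SE 0.071, adjusted p = 4.49e-13) and 3.16-fold with PCI-34051 (1.66, SE 0.074, adjusted p = 4.46e-12). In KDAC6H216A cells it stood 1.84-fold above WT cells and did not pass (0.88, SE 0.16, adjusted p = 0.024). Without replicate 1 of that line, low in mitochondrial rRNA, the difference passed (1.01), and 5 of 11 other settings also called it, with values from 0.84 to 1.03. In KDAC6H611A cells MMP1 was higher and TIMP3 lower than in WT cells, and in KDAC8H143A cells both were lower.

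TIMP2, which inhibits metalloproteinases and helps MMP14 to activate MMP2, was higher with both inhibitors. WT cells had 199, 208, 184 and 194 CPM. With Tubastatin A the values were 444, 425 and 448 CPM and with PCI-34051 they were 469.6, 484 and 524 CPM. All 6 lay above the WT libraries, with rises of 2.06-fold (1.05, SE 0.050, adjusted p = 1.23e-12) and 2.34-fold (1.23, SE 0.064, adjusted p = 3.64e-11) in edgeR's quasi-likelihood test. The lines averaged 219 ± 49.9 (KDAC6H216A), 165 ± 31.3 (KDAC6H611A) and 184 ± 52.7 CPM (KDAC8H143A). Each range overlapped that of WT cells and none passed (adjusted p = 0.86, 0.21 and 0.81). In KDAC8H143A cells replicates 1 and 4 (155 and 124 CPM) lay below replicates 2 and 3 (232 and 224 CPM), and MMP2 and TIMP3 split the same libraries in the same way. Of the genes overlapping TIMP2, CEP295NL on the same strand averaged 25.4 CPM in KDAC8H143A cells and 3.67 in WT cells.

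TIMP1, the soluble inhibitor of most secreted metalloproteinases, was higher with both inhibitors and lower in KDAC8H143A cells. WT cells had 35.2, 46.4, 42.8 and 45.9 CPM. With Tubastatin A it stood at 70.2, 65.8 and 66.7 CPM, with PCI-34051 at 79.5, 78.9 and 78.8 CPM, and in KDAC8H143A cells at 30.8, 33.1, 29.4 and 26.9 CPM. None of these ranges overlapped that of WT cells. The rise was 1.45-fold (0.54, SE 0.059, adjusted p = 1.87e-07) and 1.72-fold (0.78, SE 0.064, adjusted p = 1.29e-08), and the fall in KDAC8H143A cells 1.37-fold (-0.45, SE 0.11, adjusted p = 0.0035), in edgeR's quasi-likelihood test. The fall did not pass without WT replicate 2 or 4 (-0.43 each), without the low count filter (-0.43) or with total count scaling (-0.16), and grew to -1.17 with the GC content and length correction. Both KDAC6 lines overlapped WT cells, at 41.9 ± 7.32 and 39.7 ± 8.31 CPM, and did not pass (adjusted p = 0.65 and 0.75). SYN1, on the opposite strand across TIMP1, reached at most 0.751 CPM.

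PLAU, urokinase, was called in 1 of the 5 comparisons with WT cells, that of KDAC8H143A. WT cells had 579, 668, 684 and 652 CPM, and KDAC8H143A cells had 222, 288, 291 and 207 CPM. The fall was 2.48-fold (-1.31, SE 0.12, adjusted p = 4.96e-06 in edgeR's quasi-likelihood test), held in 8 of 8 fits without 1 library and ran from -1.61 to -1.01 over 11 other settings. The groups did not overlap, and KDAC8H143A lay below all other groups. KDAC6H216A cells had 478, 703, 736 and 747 CPM and KDAC6H611A cells 689.9, 497, 845 and 759.6 CPM. The inhibitor groups had 753, 721 and 757 CPM (Tubastatin A) and 687, 756 and 729 CPM (PCI-34051), just above the highest WT library. None of these 4 groups passed (adjusted p = 0.84, 0.55, 0.094 and 0.33). The Tubastatin A difference was 0.088 and passed with total count scaling (0.44), without the low count filter (0.18) and with the GC content and length correction (0.18). That with PCI-34051 was 0.065 and passed with total count scaling (0.45). In the order Tubastatin A, PCI-34051, KDAC6H611A, KDAC6H216A, WT and KDAC8H143A, all neighbours but the last pair overlapped. The opposite-strand RNA C10orf55, which overlaps PLAU, averaged 24.7 CPM in KDAC8H143A cells and 9.30 in WT cells.

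PLAUR, the urokinase receptor, had group means from 76.7 to 123 CPM. WT cells had 94.7, 105, 105 and 98.1 CPM, and with Tubastatin A it had 125, 119.8 and 123 CPM, above the WT range. That rise was 1.12-fold (0.17, SE 0.047, adjusted p = 0.0043 in edgeR's quasi-likelihood test) and did not pass without WT replicate 4 (0.16) or Tubastatin A replicate 1 (0.15). It also did not pass in the fit of all 6 groups (0.28), with upper quartile factors (0.14) or with protein-coding genes only (0.12). With PCI-34051 it had 101, 98.3 and 98.6 CPM, within the WT range (-0.12, adjusted p = 0.035), and total count scaling turned the sign and called it (0.27). KDAC6H611A cells had 70.2, 61.7, 83.9 and 90.9 CPM, below every WT library, without passing (-0.37, SE 0.11, adjusted p = 0.025). Without replicate 4 of that line the difference passed (-0.46), as it did with DESeq2 (-0.37) and the GC content and length correction (-0.47). KDAC6H216A cells had 84.9, 115, 127 and 133 CPM and KDAC8H143A cells 93.9, 87.0, 99.3 and 87.0 CPM. Both overlapped WT cells and did not pass (0.094 and -0.084, adjusted p = 0.68 and 0.42), while KDAC8H143A passed with the GC content and length correction (-0.57). Every pair of neighbours overlapped in the order Tubastatin A, KDAC6H216A, WT, PCI-34051, KDAC8H143A and KDAC6H611A.

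Each inhibitor was also set against the line that carries the mutated enzyme. Tubastatin A and KDAC6H611A differed in 8 of 9 members, 6 higher and 2 lower with the inhibitor, where 34.9% of all genes were called (17.7% higher, 17.2% lower). The ranges did not overlap for 8 members (55.5% of all genes). Calls over all genes were 2945 higher and 2852 lower, and 3232 and 1283 with total count scaling, which also ended those of MMP14 (0.93) and PLAUR (0.85). TIMP3 was 8.23-fold higher with Tubastatin A (3.04, SE 0.17, adjusted p = 8.84e-07), MMP2 2.60-fold higher (1.38, SE 0.19, adjusted p = 2.10e-04) and TIMP2 2.46-fold higher (1.30, SE 0.14, adjusted p = 4.31e-05) (edgeR's quasi-likelihood test). MMP1 was 7.09-fold lower (-2.83, SE 0.19, adjusted p = 2.16e-06) and MMP3 5.19-fold lower (-2.38, SE 0.31, adjusted p = 1.66e-04). MMP14 (0.65), TIMP1 (0.65) and PLAUR (0.57) were higher by less, and their calls were lost in 5, 1 and 4 of 7 fits without 1 library. MMP14 did not pass without KDAC6H611A replicate 1 (0.67) or 4 (0.69) or Tubastatin A replicate 1 (0.64), 2 (0.68) or 3 (0.65). TIMP1 did not pass without Tubastatin A replicate 1 (0.63), and PLAUR not without KDAC6H611A replicate 1 (0.56) or Tubastatin A replicate 1 (0.56), 2 (0.60) or 3 (0.58). PLAU did not pass (-0.013, adjusted p = 0.95). The Tubastatin A libraries held 28394225 to 29862665 counts and those of KDAC6H611A 7324519 to 12752463, and here too depth and group cannot be told apart.

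PCI-34051 and KDAC8H143A differed in 7 of 9 members, all higher with the inhibitor, where 58.2% of all genes were called (30.3% higher, 27.8% lower). The ranges did not overlap for 7 members (71.2% of all genes). Calls over all genes were 5623 higher and 5161 lower, and 4554 and 6213 with upper quartile factors. MMP1 was 16.0-fold higher (4.00, SE 0.22, adjusted p = 4.90e-07), TIMP3 7.19-fold (2.85, SE 0.22, adjusted p = 3.67e-06), MMP2 4.29-fold (2.10, SE 0.27, adjusted p = 7.02e-05) and PLAU 2.95-fold (1.56, SE 0.14, adjusted p = 9.20e-06) in edgeR's quasi-likelihood test. TIMP2 (1.46), TIMP1 (1.43) and MMP14 (1.41) were higher by similar steps on the log2 scale. All 7 calls held in 7 of 7 fits without 1 library. MMP3 did not pass (-0.81, adjusted p = 0.025), but passed without KDAC8H143A replicate 4 (-0.99) and in 7 of 11 other settings, among them DESeq2 (-0.86) and the GC content and length correction (-1.02). PLAUR did not pass (0.15, adjusted p = 0.19), but passed with that correction (0.56). The libraries of the inhibitor held 24315766 to 28676518 counts and those of the line 11010719 to 17170473, and depth and group cannot be told apart.

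Of the wider protease network, the protease inhibitor gene SERPINB2, whose product blocks urokinase, rose from 0.946 ± 0.378 CPM in WT cells to 4.08 ± 0.529 with Tubastatin A (2.05) and 7.09 ± 0.748 with PCI-34051 (2.86). It was also higher in KDAC6H611A cells (1.59, adjusted p = 0.0068 in edgeR's quasi-likelihood test), but passed in 2 of 8 fits without 1 library, those without WT replicate 1 and KDAC6H611A replicate 2, and ran from 1.42 to 1.66 in the 6 others. SERPINE2, protease nexin-1, was lower in KDAC8H143A cells (-0.63), a call lost with the GC content and length correction (-0.087), with total count scaling (-0.33) and without WT replicate 2 (-0.64), 3 (-0.63) or 4 (-0.63) or KDAC8H143A replicate 1 (-0.56).

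PLAT, tissue plasminogen activator, and other partners of plasmin followed the same comparisons. PLAT averaged 137 ± 5.47 CPM in WT cells. It was higher in KDAC6H611A cells (222 ± 43.8 CPM, 0.72, adjusted p = 0.0010) and lower in KDAC8H143A cells (36.1 ± 4.57 CPM, -1.87, adjusted p = 2.02e-07). Tubastatin A (599 ± 35.8 CPM, 2.02, adjusted p = 7.99e-17) and PCI-34051 (566 ± 35.7 CPM, 1.95, adjusted p = 4.92e-14) both came with a higher level. In KDAC6H611A cells it did not pass with total count scaling (0.76). Both plasminogen activator genes, PLAU and PLAT, were lower in KDAC8H143A cells, and PLAT alone was called under the inhibitors. Of 9 partner genes, 7 were tested in these comparisons. In KDAC8H143A cells 2 were higher and 4 lower (58.5% of all genes called), and with each inhibitor 4 higher and 1 lower (57.9% with Tubastatin A, 51.1% with PCI-34051). In KDAC6H611A cells 2 were higher and none lower (12.3%), and in KDAC6H216A cells none passed (0.834%). LRP1, which clears urokinase complexes, rose in KDAC6H611A cells from 242 ± 18.4 to 408 ± 73.6 CPM (0.78), except with total count scaling, where it did not pass (0.82). Its mean was higher still in KDAC8H143A cells (541 ± 45.9 CPM), with PCI-34051 (494 ± 17.3) and with Tubastatin A (461 ± 13.5). MRC2, which takes up collagen, rose from 111 ± 9.84 to 326 ± 16.2 CPM with Tubastatin A (1.44) and 353 ± 6.99 with PCI-34051 (1.57). PLGRKT, a plasminogen receptor, fell in KDAC8H143A cells from 8.43 ± 0.972 to 2.73 ± 0.937 CPM (-1.56).

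Among 19 other metalloproteinase genes, most were near 0 and 4 to 6 passed the filter on low counts in each comparison with WT cells. MMP9, gelatinase B, was higher in KDAC6H611A cells (5.73 ± 1.86 against 1.12 ± 0.304 CPM, log2 fold change 2.41, adjusted p = 1.86e-04) and in KDAC8H143A cells (15.9 ± 4.68 CPM, 3.90, adjusted p = 1.05e-06) (edgeR's quasi-likelihood test). In KDAC8H143A cells 4 of 6 tested were higher and 1 lower (58.5% of all genes called), with a median of 1.29 against 0.076 over all genes. MMP23B was at least 5.84-fold higher there, at 3.63 ± 2.59 CPM, set against the limit of 3 counts a library in WT cells. Its log2 fold change of 4.96 went to 2.59 with the GC content and length correction. The call was lost when the replicate block was added to that correction (2.49). MMP16, a membrane-anchored protease, rose with Tubastatin A (125 ± 5.58 against 49.8 ± 2.28 CPM, 1.21) and PCI-34051 (111 ± 3.00 CPM, 1.06). MMP24 rose with PCI-34051 (0.88) and with Tubastatin A (0.66), the second in 1 of 7 fits without 1 library, that without WT replicate 3, and from 0.57 to 0.68 in the 6 others.

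Of 12 ADAM and ADAMTS genes, relatives that shed surface proteins or cut proteoglycans, 8 or 9 were tested. None passed in KDAC6H216A (0.834% of all genes called), and 1 was higher and 1 lower in KDAC6H611A (12.3%). In KDAC8H143A 3 were higher and 3 lower (58.5%), and 4 were higher and 3 lower with each inhibitor (57.9% and 51.1%). ADAMTS9 rose in KDAC6H611A cells (10.4 ± 2.50 against 2.78 ± 0.803 CPM, 1.94) and ADAM19 fell (64.2 ± 9.42 against 109.8 ± 8.93 CPM, -0.75), the latter not called with total count scaling (-0.73). In KDAC8H143A cells ADAMTS9 averaged 8.44 ± 0.486 CPM. ADAMTS12 (7.49 ± 1.23 against 0.669 ± 0.450 CPM, 3.54) and ADAM8 (36.4 ± 14.1 against 8.30 ± 1.72 CPM, 2.20) rose in KDAC8H143A cells, and ADAM8 stood at 1.11 with the GC content and length correction. ADAM9 rose with Tubastatin A (477 ± 1.83 against 213 ± 16.1 CPM, 1.04) and PCI-34051 (450.4 ± 28.8 CPM, 0.98), while ADAM12 fell with both (-1.13 and -1.31).

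**Figure D5:**
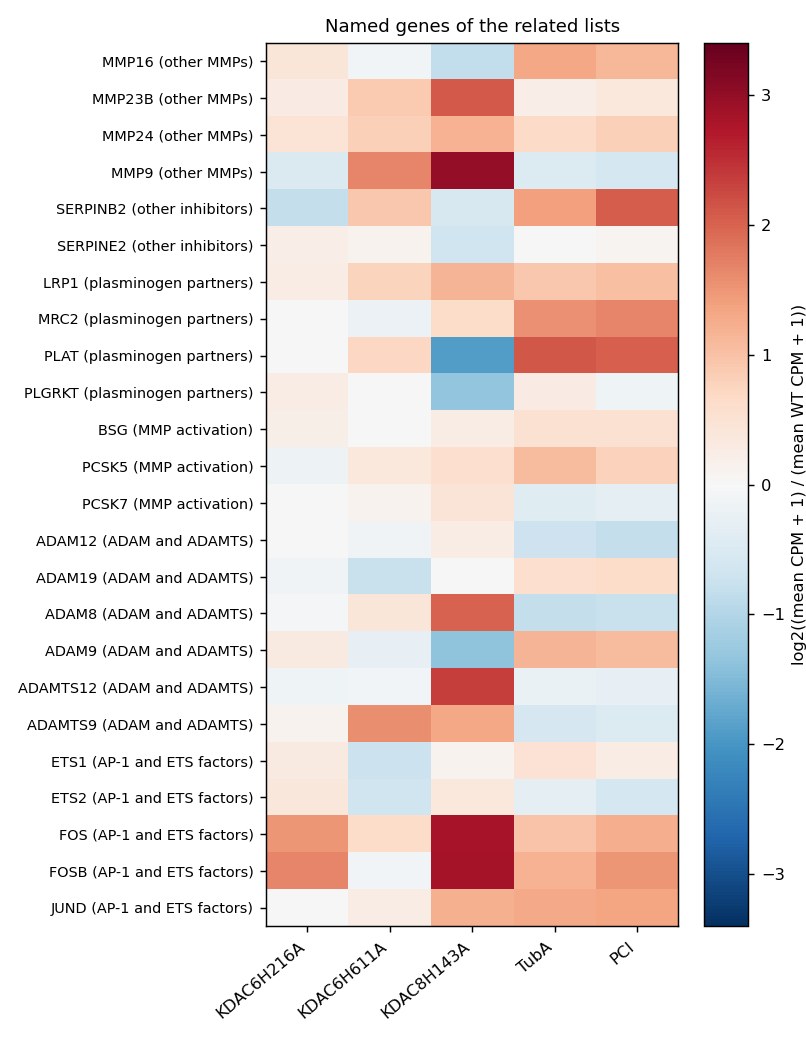
Log2 of the ratio of mean CPM + 1 to that in WT cells (colour) for the named genes of the related lists, in the 3 lines and 2 treatments. PLAT is red under both inhibitors (599 and 566 CPM against 137 in WT cells) and blue in KDAC8H143A cells (36.1 CPM).

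Genes that activate proenzymes differed by less. Of 7 such genes 5 were tested, and none passed in the KDAC6 lines (0.834% and 12.3% of all genes called). In KDAC8H143A cells 2 were higher (58.5% of all genes called), and 2 were higher and 1 lower with each inhibitor (57.9% and 51.1%). PCSK5, a proprotein convertase, was higher with Tubastatin A (8.41 ± 0.374 against 3.50 ± 0.339 CPM, 1.16) and PCI-34051 (6.78 ± 0.447 CPM, 0.86). In KDAC8H143A cells (0.74) it passed in 3 of 8 fits without 1 library and did not pass with the GC content and length correction (0.55). It failed there without WT replicate 2 (0.74), 3 (0.69) or 4 (0.68) or KDAC8H143A replicate 2 (0.69) or 4 (0.63). PCSK7 rose in KDAC8H143A cells (0.50) and fell with Tubastatin A (-0.54), where a fit of all 6 groups did not call it (-0.43). BSG, an inducer of metalloproteinases, rose with PCI-34051 (287 ± 9.95 against 199 ± 20.2 CPM, 0.42) but not in a fit of all 6 groups (0.52). With Tubastatin A, BSG averaged 286 ± 4.22 CPM. PCSK7 averaged 56.5 ± 2.29 CPM with Tubastatin A and 61.8 ± 1.30 with PCI-34051, against 76.1 ± 1.07 in WT cells.

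The AP-1 and ETS factors, known regulators of metalloproteinase and urokinase genes, were tested as 14 genes (13 in KDAC6H611A). In KDAC6H216A cells none passed. FOS stood there at 7.92 ± 3.02 CPM against 2.16 ± 0.788 in WT cells (1.82, adjusted p = 0.037 in edgeR's quasi-likelihood test) and FOSB at 3.97 ± 2.59 against 0.561 ± 0.257 CPM (2.77, adjusted p = 0.043). Neither range overlapped that of WT cells (8.59% of all genes tested), nor did those of JUNB, ETS2 and ETV1. FOS and FOSB, singled out for this line after their values were seen, passed without KDAC6H216A replicate 1 (1.48 and 2.15). JUNB, ETS1, ETS2, ETV1, ETV5 and ELK1 passed in that fit as well, in which 3813 genes were called against 121 with all libraries. FOS and FOSB also passed in 4 other settings each, of 11 for FOS and 10 for FOSB. In KDAC6H611A cells 1 was higher and 3 lower (12.3% of all genes called). In KDAC8H143A cells 8 were higher and 3 lower (58.5% of all genes called), with Tubastatin A 9 and 3 (57.9%), and with PCI-34051 7 and 3 (51.1%). ETS1 (87.3 ± 14.3 against 145 ± 7.39 CPM, -0.71) and ETS2 (44.9 ± 8.24 against 72.8 ± 7.70 CPM, -0.67) fell in KDAC6H611A cells, both not called with total count scaling (-0.68 and -0.63). FOS (20.9 ± 6.77 against 2.16 ± 0.788 CPM, 3.35) and FOSB (10.1 ± 3.36 against 0.561 ± 0.257 CPM, 4.23) rose in KDAC8H143A cells. FOSB also rose with Tubastatin A (2.09) and PCI-34051 (2.53), as did JUND with Tubastatin A (1.20) and FOS with PCI-34051 (1.52). JUND averaged 37.5 ± 2.26 CPM with Tubastatin A, 39.4 ± 2.58 with PCI-34051 and 35.8 ± 10.4 in KDAC8H143A cells, against 14.8 ± 2.28 in WT cells. FOS averaged 5.22 ± 1.43 CPM with Tubastatin A and 6.49 ± 0.922 with PCI-34051.

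Across the 22 libraries, log2(CPM + 1) of MMP14, TIMP1, TIMP2 and MMP2 ran together, with Pearson's r from 0.90 to 0.97 in each pair. The libraries share group, depth and mitochondrial rRNA content, so r describes this set and no p is given. MMP1 had r of at most 0.60 with any other member, that with PLAU, and MMP3 had negative r with all members but MMP1 (0.18) and PLAU (0.050). Among 15637 genes with a mean of at least 1 CPM, those most like MMP1 were MAGEC2, CSF2RA and MYPN (r = 0.95 each). The closest to TIMP3 were CDH2 (0.99), TMX4 (0.98) and HIBADH (0.98), and to PLAU RPS12, RPL29 and SPCS1 (0.99 each). TIMP1 was most like MMP14 (0.97), MMP14 like CTNNA1 (0.98), TIMP2 like EFNA5 (0.97) and MMP2 like SEZ6L2 (0.98). MMP3 and PLAUR had lower best values, with TTF2 (0.89) and VASP (0.94).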

How the data were processed

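RNA of HT1080 cells was sequenced in 22 libraries of 6 groups. The authors used Trimmomatic 0.39 for trimming, Bowtie2 2.4.5 for alignment and RSEM 1.3.3 for estimating gene counts on GRCh38, and the deposited values are expected counts, which need not be whole (annotation release not given in the sources used here). The table holds 60675 genes, and 0 columns of samples were left unused.

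Expected counts were rounded, genes low in counts were removed by filterByExpr, and groups were compared pairwise with edgeR 4.0.16 (TMM factors, quasi-likelihood test, Benjamini-Hochberg adjustment over all genes tested, threshold 0.01). CPM used 1 set of TMM factors over all libraries. SE is the absolute log2 fold change over the square root of F. Exon lengths and overlaps came from GENCODE v44. The fits were tested on simulated data. Totals of 5248953 to 29862665 counts per library set the counting precision. The members and lists were chosen with earlier results of these data known. List genes were named where they were among the 2 called with the largest absolute change in a list and comparison with WT cells, with the group of higher mean at 1 CPM or above, and the 3 genes most correlated with each member were taken as the most alike. The other list genes are given by count. 1 list gene, with the counts of its list, is not reported here. Alternatives were DESeq2 1.42.0, other scalings and filters, a fit of all groups, protein-coding genes only, a correction for GC content and gene length, a replicate block and each library left out.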

Additional observations from a re-analysis of the deposited data

Results flagged for a closer look

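In 36 gene-by-group sets of 4 libraries, 2 libraries stood apart from the rest of their group by Dixon's test, where chance gives about 1 in 20 sets. Both were the lowest KDAC6H216A library, replicate 1, which is also low in mitochondrial rRNA. TIMP3 had 20.9 CPM there against 37.7 to 40.3 in the other libraries, and PLAU had 478 CPM against 703 to 747. Whether the mitochondrial rRNA content bears on either was not tested.

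MMP1 and TIMP3 differed between the KDAC6 lines, whose clones and mutations cannot be told apart. The difference between KDAC6H611A and KDAC6H216A cells was 6.03 on the log2 scale for MMP1 and -2.33 for TIMP3, both past the threshold in edgeR's quasi-likelihood test.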

How the results depend on the processing

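Of the member values, 715 of those from other settings and 494 of those from leaving out 1 library kept direction and side of the threshold. In other settings 38 newly passed, 13 no longer passed and 35 turned sign, and with 1 library left out 10, 14 and 22 did. The number of members called went from 1 to 2 in KDAC6H216A (adjusted p under 0.05, DESeq2, total count scaling, no low count filter, replicate block; 1 to 3 with 1 library left out), from 2 to 4 in KDAC6H611A at an adjusted p under 0.05 (2 to 4 with 1 left out), and from 4 to 2 in KDAC8H143A with total count scaling. In Tubastatin A against KDAC6H611A it ran from 5, without Tubastatin A replicate 1, to 8. The values that turned sign were small and did not pass in the reported fit, except MMP1 with PCI-34051. With total count scaling these were TIMP1 (0.045) and PLAU (0.11) in KDAC6H216A, MMP3 (0.017), TIMP2 (0.26) and PLAUR (0.20) in KDAC8H143A, MMP1 (0.11) and PLAUR (0.27) with PCI-34051, TIMP1 (-0.087) between the KDAC6 lines and PLAU (0.27) between Tubastatin A and KDAC6H611A. In a fit of all 6 groups they were PLAU (0.044) in KDAC6H216A, MMP14 (-0.020) in KDAC6H611A, TIMP1 (-0.071) between the KDAC6 lines and PLAU (0.091) between Tubastatin A and KDAC6H611A. Without the low count filter they were MMP14 (-0.025) in KDAC6H611A, TIMP1 (-0.060) between the KDAC6 lines and PLAU (0.14) between Tubastatin A and KDAC6H611A, and with at least 10 counts in every library TIMP2 (0.015) in KDAC8H143A. With DESeq2 they were MMP14 (-9.17e-05) in KDAC6H611A and PLAU (6.47e-04) between Tubastatin A and KDAC6H611A. With the GC content and length correction they were MMP14 (-0.12) in KDAC6H611A, MMP2 (-0.30) and MMP3 (0.045) in KDAC8H143A, TIMP1 (-0.20) between the KDAC6 lines and PLAU (0.16) between Tubastatin A and KDAC6H611A. With upper quartile factors they were MMP14 (0.034) between the KDAC6 lines and PLAUR (-0.057) between PCI-34051 and KDAC8H143A, the latter also with protein-coding genes only (-0.073), and without both libraries low in mitochondrial rRNA, an alternative chosen after seeing the data, TIMP1 (-0.070) between the KDAC6 lines. Whether same-numbered replicates of different groups were handled together is not stated. Correlations of their deviations were 0.20, 0.032, 0.13 and 0.0019 in KDAC6H216A and WT cells. Between the KDAC6 lines they were -0.11, -0.23, 0.37 and 0.12. The replicate block added a call of TIMP3 in KDAC6H216A (0.88), ended the calls of PLAUR with Tubastatin A (0.15) and of MMP14 between Tubastatin A and KDAC6H611A (0.71), added one of MMP3 between PCI-34051 and KDAC8H143A (-0.99) and turned MMP14 in KDAC6H611A (-0.011) and PLAU between Tubastatin A and KDAC6H611A (0.048), and the block with the GC content and length correction turned MMP14 (-0.13) in KDAC6H611A, MMP2 (-0.41) and MMP3 (0.017) in KDAC8H143A, TIMP1 (-0.21) between the KDAC6 lines and PLAU (0.19) between Tubastatin A and KDAC6H611A. With 1 library left out, sign turned in KDAC6H216A for MMP3 (-0.081 to 0.17), TIMP2 (-0.0088 to 0.17) and PLAU (-0.096 to 0.036), in KDAC6H611A for MMP14 (-0.068 to 0.090) and TIMP1 (-0.16 to 0.022), and in KDAC8H143A for MMP2 (-0.13 to 0.32) and TIMP2 (-0.25 to 0.054). It also turned between the KDAC6 lines for MMP14 (-0.18 to 0.0065) and TIMP1 (-0.073 to 0.11), and between Tubastatin A and KDAC6H611A for PLAU (-0.10 to 0.11). The cause of these changes was not tested. Over all genes, the calls ran from 28 to 3813 in KDAC6H216A, the first without WT replicate 3 and the second without KDAC6H216A replicate 1, and from 913 to 3383 in KDAC6H611A, 7537 to 11191 in KDAC8H143A, 4607 to 10347 with Tubastatin A and 4341 to 9580 with PCI-34051.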

Other observations

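The marker genes of other cell types were also counted. In KDAC8H143A cells 4 of 5 tested mesenchymal markers were lower and 3 of 3 tested epithelial markers higher than in WT cells, in a comparison in which 58.5% of all genes were called. With each inhibitor 4 of 5 mesenchymal markers were higher and 1 lower, and 2 of 3 epithelial markers were higher, where 57.9% (Tubastatin A) and 51.1% (PCI-34051) of all genes were called. The summed mesenchymal level ran from 5647 to 6508 CPM in WT cells and from 3349 to 4465 CPM in KDAC8H143A cells, and the summed epithelial level from 234 to 287 and from 365 to 477 CPM. The leukocyte markers summed to at most 6.38 CPM and the endothelial markers to at most 4.41 CPM in any library. The part of these levels in the protease results was not tested.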
